A study of Mus musculus with 35 samples.

Results

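The genes described here encode 9 components, regulators and receptors of the complement system: the C1q subunit genes C1qa, C1qb and C1qc, the components C3, C4b and C7, the inhibitor gene Serping1, and the anaphylatoxin receptor genes C3ar1 and C5ar1. They were chosen by name, as the rows of the deposited expression table annotated with exactly 1 of these symbols, and of several rows of a gene the brightest on average over the 35 arrays was kept. Of the 9 genes, 8 had such a row, among 19938 genes in all. C3 had none and was not analysed here. Each of the 8 had a single row.

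Quadriceps RNA from female mice aged 2 months was hybridised, with 1 array per mouse, in an original experiment (experiment 1) and an independent second one (experiment 2). Control mice, mice given 1 dose of ActRIIB-Fc, mice given 4 doses of it and mstn-null mice, which lack myostatin, were compared. ActRIIB-Fc is a soluble decoy form of the activin type IIB receptor, which captures myostatin and other ligands of its family outside the cell. Experiment 1 held 3 arrays of each class and experiment 2 held 5, except for 8 of mstn-null mice. All groups share sex, age and muscle; the strain, the amount and spacing of the doses, and what the controls received are not given in the sources used here.

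Complement is a set of proteins that tag particles for uptake, attract white blood cells and open pores in membranes. C1q, built from the products of C1qa, C1qb and C1qc, recognises bound antibody and dying cells, and C4 and C3 are cut in turn to coat the target. C5 to C9 form the pore. The small fragments C3a and C5a act on the receptors made from C3ar1 and C5ar1. Most complement components in plasma come from the liver, whereas C1q is made largely by macrophages and related cells, and muscle fibres, fibroblasts and macrophages can make others locally.

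Array medians over all genes ran from 4.73 to 4.86 on the log2 scale in experiment 1 and from 6.34 to 6.54 in experiment 2. Levels are therefore given within an experiment only. Values below are log2 expression levels, or log2 changes where so named, and a change counts as called when its limma adjusted p over all 19938 genes was under 0.05. Muscle fibre markers were bright in controls, with actin alpha 1, Acta1, at a mean of 12.02 in experiment 1 and 14.09 in experiment 2, and the creatine kinase gene Ckm at 11.83 and 13.83. Mstn was lower in mstn-null muscle by a log2 change of -2.30 ± 0.23 SE over both experiments (limma adjusted p = 3.54e-08). The gap was smaller in experiment 1, with means of 7.35 in controls and 6.14 in mstn-null mice, than in experiment 2, with 10.03 and 7.25. The mstn-null arrays of experiment 2 also had a narrower spread over genes, with an interquartile range of 2.28 ± 0.12 (SD, n = 8) against 2.56 ± 0.06 (SD, n = 5) in controls.

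The 3 C1q genes sit side by side on chromosome 4 in the order C1qb, C1qc, C1qa. The 300-base windows around the start sites of C1qb, C1qc and C7 are shown, the 3 at hand that held a motif searched for here. C1qb and C1qc rose after 4 doses and C7 fell. The windows of C3ar1 and C5ar1, which also rose, held no such motif and are not shown. They run from 250 bases before the start site to 50 after it, 5′ to 3′ along the gene, and come from RefSeq on GRCm38.p6. All 3 genes lie on the minus strand, C1qb at chr4:136886151-136886450, C1qc at chr4:136892865-136893164 and C7 at chr15:5063724-5064023. Capitals mark a GAGGAA (the core of a PU.1 box) on either strand in C1qb and C1qc, and a TTCNNNGAA (a STAT site core) in C7.
C1qb: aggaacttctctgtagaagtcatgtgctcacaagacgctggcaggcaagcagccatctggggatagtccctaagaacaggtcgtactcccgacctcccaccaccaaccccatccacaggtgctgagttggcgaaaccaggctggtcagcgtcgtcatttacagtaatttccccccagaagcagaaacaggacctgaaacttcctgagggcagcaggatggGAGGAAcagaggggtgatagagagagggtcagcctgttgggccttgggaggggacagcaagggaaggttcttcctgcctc
C1qc: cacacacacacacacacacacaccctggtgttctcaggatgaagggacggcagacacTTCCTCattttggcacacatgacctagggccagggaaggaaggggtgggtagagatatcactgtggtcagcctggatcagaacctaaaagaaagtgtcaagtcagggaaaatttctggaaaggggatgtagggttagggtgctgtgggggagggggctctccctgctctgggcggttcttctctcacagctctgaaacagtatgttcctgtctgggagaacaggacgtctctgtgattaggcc
C7: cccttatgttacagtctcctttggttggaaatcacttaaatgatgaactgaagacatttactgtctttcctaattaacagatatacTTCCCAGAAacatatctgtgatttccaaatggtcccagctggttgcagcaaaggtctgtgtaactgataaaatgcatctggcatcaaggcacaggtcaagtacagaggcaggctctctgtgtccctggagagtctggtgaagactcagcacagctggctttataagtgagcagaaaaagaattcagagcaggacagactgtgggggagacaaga

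In C1qb the GAGGAA match lay at position -30 from the start site on the gene's own strand, and in C1qc at -193 on the opposite strand, where it reads TTCCTC. Among 32851 mouse promoters of this length 28.3% hold GAGGAA on either strand. The TTCNNNGAA match of C7 lay at -164, and 8.3% of the promoters hold that motif. The core of an interferon-stimulated response element, searched on both strands as well, is in 3.44% of promoters and was not found in the windows of C1qb, C1qc, C3, C3ar1, C5ar1 or C7. The windows of C3ar1, C5ar1 and C3 held none of the 3 motifs. The motifs do not overlap one another in these windows, and a match is only a description of the letters. RefSeq windows were at hand for 6 of the 9 genes; C1qa, C4b and Serping1 are named only.

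After 4 doses of ActRIIB-Fc, 4 of the 8 complement genes rose and 1 fell against control over both experiments. C1qb and C1qc, 2 of the 3 C1q subunits, rose by log2 changes of 0.68 and 0.54, and the receptor genes C3ar1 and C5ar1 by 0.58 and 0.49. C7, which starts insertion of the pore into the membrane, fell by 0.39. The called share was 5 of 8, where 3.14% of all genes were called in this comparison, 1.91% higher and 1.23% lower. The median log2 change over the 8 genes was 0.45, against 0.02 over all genes. The comparisons with control share the same control arrays.

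C1qa in experiment 2 stood at 6.78, 7.04, 7.02, 7.01 and 6.90 in controls and at 7.69, 7.81, 7.67, 7.66 and 7.59 after 4 doses. After 1 dose it stood at 7.79, 7.57, 7.79, 7.13 and 7.40, and in the 8 mstn-null mice its lowest, median and highest values were 7.18, 7.44 and 7.94. Every treated and every mstn-null array of experiment 2 lay above every control array. In experiment 1 the controls stood at 5.58, 5.52 and 6.06, the 4-dose mice at 5.73, 5.55 and 5.61, the 1-dose mice at 5.50, 6.12 and 5.48, and the mstn-null mice at 4.85, 5.59 and 5.49. There the groups overlapped. Over both experiments the log2 change after 4 doses was 0.42 ± 0.14 SE and was not called (limma adjusted p = 0.101). Without control replicate 3 of experiment 1, the highest control there, it was 0.53 with an adjusted p of 0.0153.

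C1qb in experiment 2 stood at 7.39, 7.49, 6.81, 7.39 and 7.51 in controls and at 7.91, 8.28, 8.09, 8.43 and 8.25 after 4 doses. After 1 dose it ranged more widely, at 8.45, 7.88, 8.40, 7.37 and 7.97, and the mstn-null values had a lowest of 7.33, a median of 7.63 and a highest of 8.20. All 4-dose arrays lay above all controls, while 1 of the 1-dose arrays lay among the controls. In experiment 1 the controls stood at 4.54, 4.27 and 5.47 and the 4-dose mice at 4.94, 5.44 and 4.98. One control, replicate 3, was above all 4-dose arrays. The log2 change after 4 doses over both experiments was 0.68 ± 0.16 SE, a 1.60-fold rise (limma adjusted p = 0.0120).

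C1qc followed C1qb closely. Its controls in experiment 2 stood at 6.98, 7.14, 6.68, 6.85 and 6.82 and its 4-dose values at 7.59, 7.77, 7.66, 7.80 and 7.68, again without overlap. The 1-dose values were 7.65, 7.41, 7.75, 6.98 and 7.43, and the mstn-null values had a lowest of 6.75, a median of 7.21 and a highest of 7.81; both groups overlapped the controls. The controls of experiment 1, at 5.49, 4.93 and 5.88, enclosed all 4-dose values, which were 5.61, 5.66 and 5.34. The log2 change after 4 doses was 0.54 ± 0.14 SE (limma adjusted p = 0.0244). This call was lost without any of 5 arrays of experiment 2, namely control replicates 3, 4 and 5 and 4-dose replicates 2 and 4, with changes from 0.49 to 0.52 and adjusted p from 0.0532 to 0.0689. With each array centred on its median it was 0.49 (adjusted p = 0.0508).

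**Figure D1:**
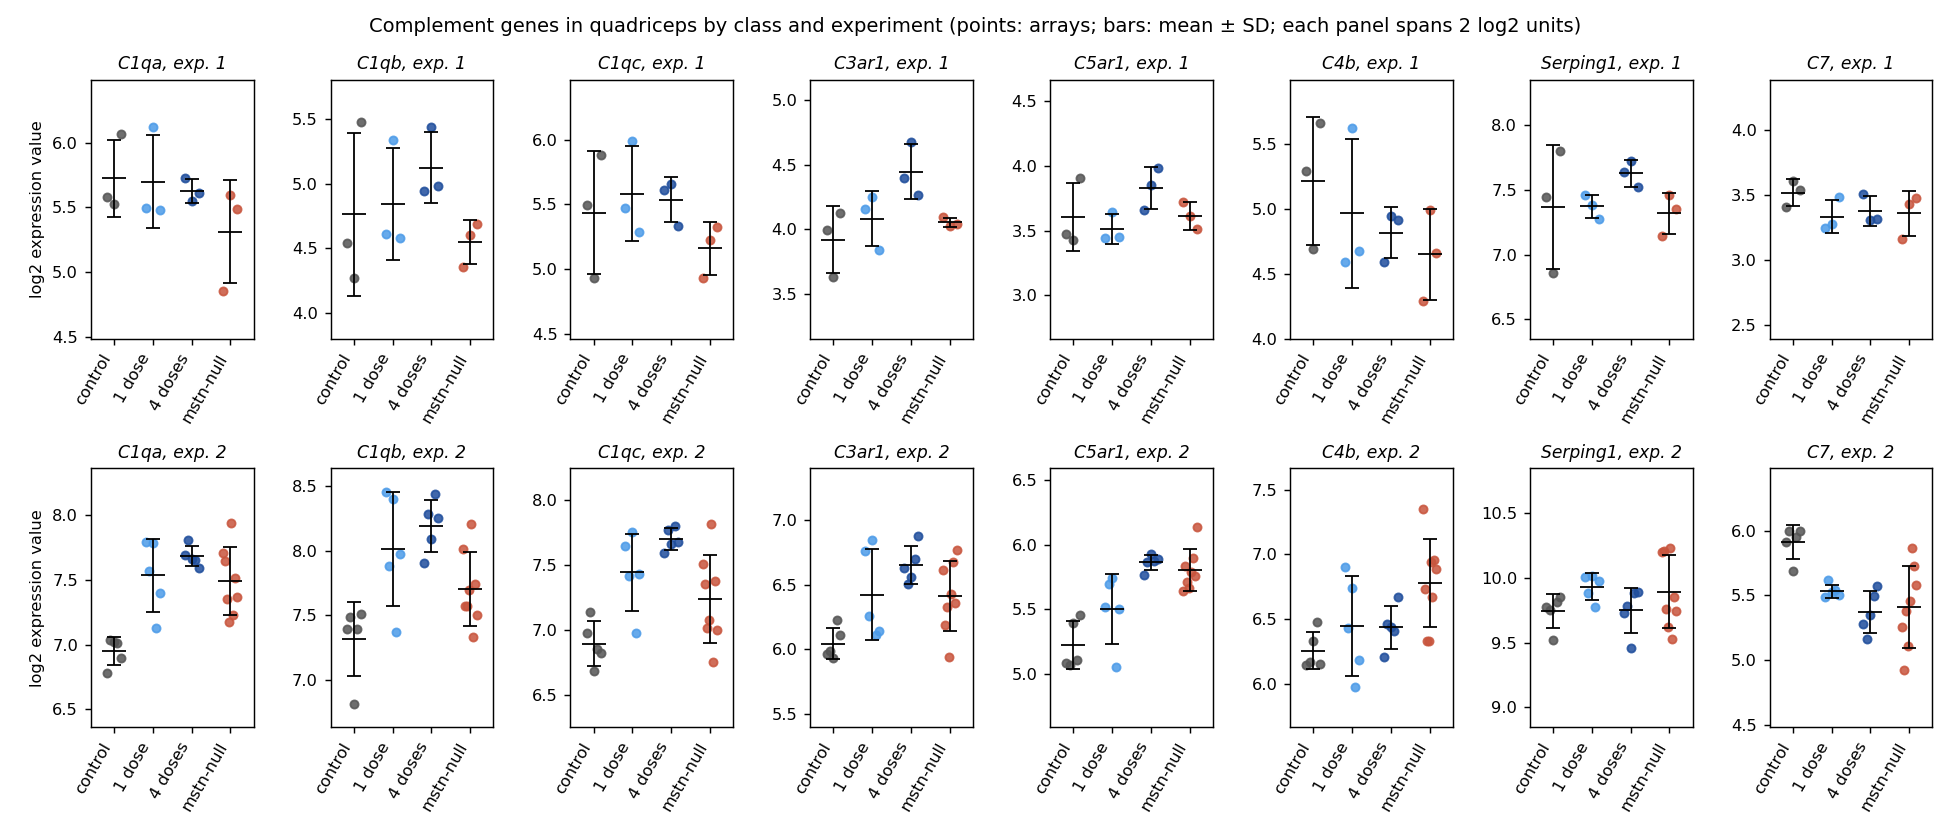
Log2 expression level (vertical axis) of the 8 complement genes in each class, with experiment 1 in the upper row and experiment 2 in the lower. Each point is an array, and bars give the mean and SD; in experiment 2 the 4-dose points of C1qa, C1qb, C1qc, C3ar1 and C5ar1 lie above all control points, and those of C7 lie below them.

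C3ar1 encodes the receptor for the C3 fragment C3a, found on macrophages and other myeloid cells. In experiment 2 it stood at 5.96, 5.99, 5.93, 6.22 and 6.11 in controls and at 6.63, 6.50, 6.56, 6.70 and 6.87 after 4 doses. In experiment 1 it stood at 4.0, 3.63 and 4.13 in controls and at 4.40, 4.68 and 4.26 after 4 doses. It was thus the only one of the 8 genes whose 4-dose and control arrays did not overlap in either experiment. The log2 change over both was 0.58 ± 0.11 SE, a 1.49-fold rise (limma adjusted p = 0.00115). The log2 change was 0.53 ± 0.15 SE in experiment 1 alone (limma adjusted p = 0.196) and 0.61 ± 0.15 SE in experiment 2 alone (adjusted p = 0.0187). The experiment 2 call was lost without control replicate 3 (0.58, adjusted p = 0.0586) or without 4-dose replicate 5 (0.55, adjusted p = 0.0600). It was also lost with quantile normalization (0.51, adjusted p = 0.0804) and with median centring (0.54, adjusted p = 0.0567).

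After 1 dose C3ar1 split in experiment 2, with 6.76 and 6.85 in replicates 1 and 3 and 6.26, 6.11 and 6.14 in the others. The same 2 arrays were also the highest of their group for C1qb and C1qc, and shared the highest values for C1qa. The 1-dose arrays of experiment 1 stood at 4.15, 4.25 and 3.84. In mstn-null mice C3ar1 stood at 4.09, 4.03 and 4.05 in experiment 1 and had a lowest of 5.94, a median of 6.39 and a highest of 6.77 in experiment 2, overlapping the controls in both.

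C5ar1 encodes the receptor for C5a, a strong attractant of neutrophils and monocytes. In experiment 2 controls stood at 5.09, 5.07, 5.40, 5.11 and 5.45, and 4-dose mice at 5.77, 5.86, 5.93, 5.87 and 5.89. The 4-dose arrays were nearly level and lay above all controls. The 1-dose arrays stood at 5.52, 5.70, 5.74, 5.06 and 5.50. The 4-dose mice of experiment 1 stood at 3.66, 3.85 and 3.98 and its controls at 3.48, 3.43 and 3.91, so that the highest control lay inside the 4-dose range. The log2 change after 4 doses was 0.49 ± 0.10 SE over both experiments (limma adjusted p = 0.00215). The mstn-null arrays of experiment 2, with a lowest of 5.64, a median of 5.77 and a highest of 6.14, also lay above every control, while those of experiment 1, at 3.72, 3.61 and 3.51, lay within the control range.

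C7 was the one gene of the 8 called lower. In experiment 2 controls stood at 5.91, 6.0, 5.69, 5.95 and 6.0, 1-dose mice at 5.49, 5.61, 5.52, 5.54 and 5.50, and 4-dose mice at 5.28, 5.16, 5.35, 5.49 and 5.57. Every treated array lay below the lowest control. The mstn-null mice had a lowest of 4.92, a median of 5.42 and a highest of 5.87, which overlapped the controls. In experiment 1 the controls stood at 3.41, 3.61 and 3.54 and the 4-dose mice at 3.51, 3.31 and 3.32, which overlapped as well. Over both experiments the log2 change after 4 doses was -0.39 ± 0.10 SE (limma adjusted p = 0.0168).

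In experiment 2 alone the change of C7 after 4 doses was -0.54 ± 0.13 SE (limma adjusted p = 0.0192). That call was lost without control replicate 2, 4 or 5 or without 4-dose replicate 2, with changes from -0.53 to -0.49 and adjusted p from 0.05002 to 0.0737.

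C4b and Serping1 did not pass the test after 4 doses. C4b encodes complement C4, cut by the C1 complex, and Serping1 encodes the C1 inhibitor, which blocks that cutting. The log2 change was -0.04 for C4b, with a 95% interval of -0.39 to 0.32, and 0.10 for Serping1, with an interval of -0.12 to 0.33. In experiment 2 C4b ranged from 6.15 to 6.48 in controls and from 6.21 to 6.67 after 4 doses, and Serping1 from 9.52 to 9.85 and from 9.46 to 9.89. Both groups overlapped for both genes. C4b has a near-identical neighbour, C4a, and the sources used here do not say how far the probes of its row separate them, so its values are uncertain.

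**Figure D2:**
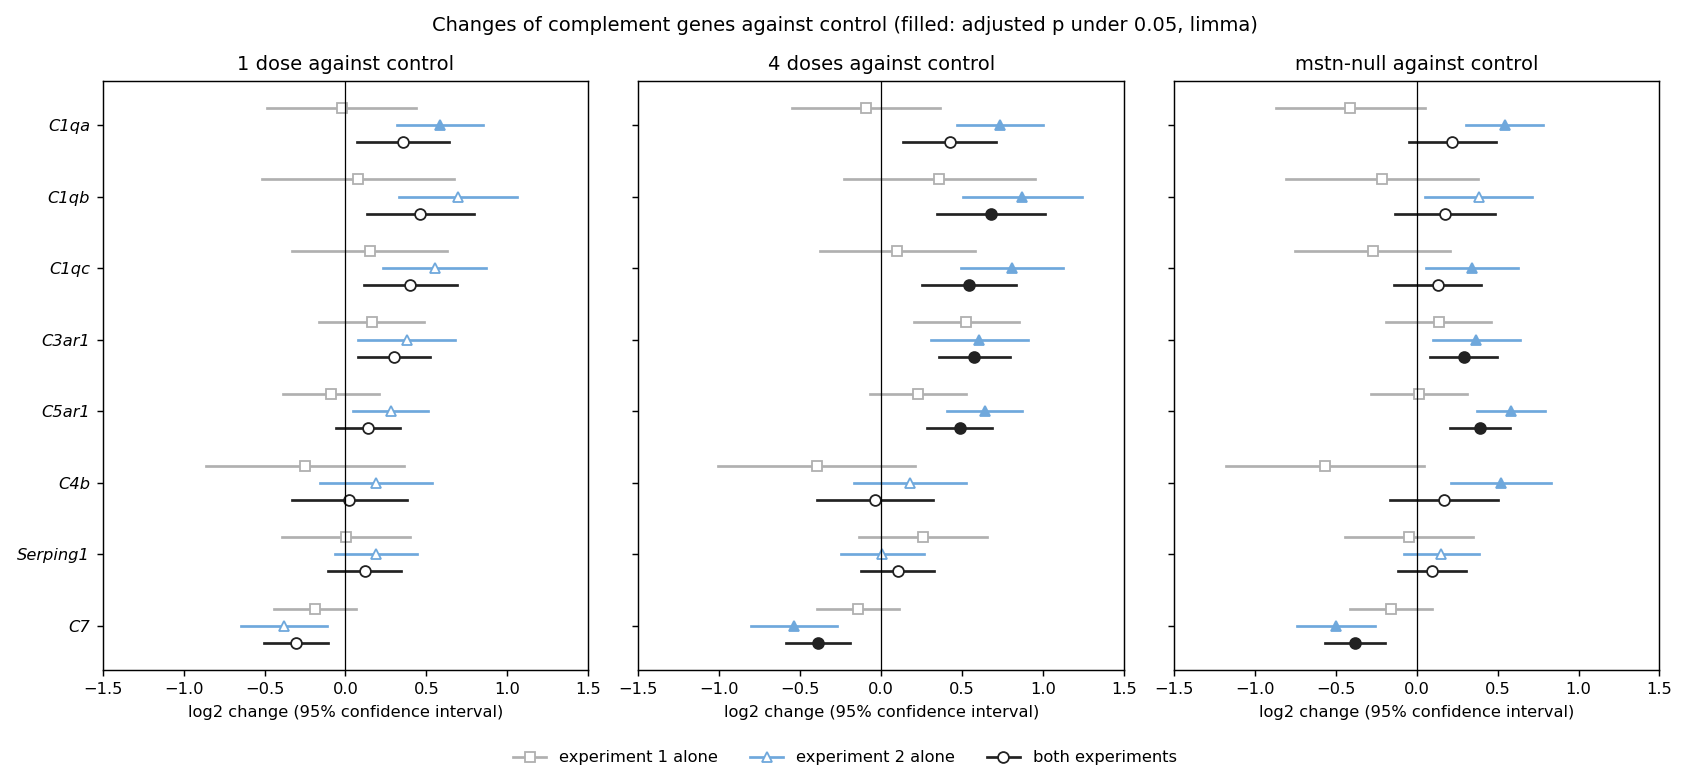
Log2 change against control (horizontal axis, with its 95% confidence interval) of the 8 complement genes after 1 dose, after 4 doses and in mstn-null mice, from experiment 1 alone, experiment 2 alone and both. Filled symbols passed the limma test; after 4 doses 5 genes did over both experiments, 6 in experiment 2 alone and 0 in experiment 1 alone.

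Taken alone, experiment 2 called 6 of the 8 genes after 4 doses, where 2.62% of all genes were called. C1qa rose by 0.73 ± 0.13 SE (limma adjusted p = 0.00133), C1qb by 0.87 ± 0.18 SE (0.00571) and C1qc by 0.81 ± 0.15 SE (0.00305). C5ar1 rose by 0.64 ± 0.11 SE (0.00143). The 4-dose arrays lay above all controls for 5 genes and below all controls for 1; of all genes 4.15% lay above and 2.8% below in this way.

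Experiment 1, with 3 arrays a class, called 0 of the 8 genes by limma after 4 doses, where 0.266% of all genes were called, and 1 gene, C3ar1, had an unadjusted p under 0.05. C3ar1 was also the only one of the 8 whose 4-dose arrays all lay above the controls there, as did those of 5.78% of all genes. The log2 changes in experiment 1 were -0.09 for C1qa, 0.36 for C1qb, 0.10 for C1qc, 0.23 for C5ar1 and -0.14 for C7. A direct test of the difference between experiments called 0 of the 8 genes after 4 doses by limma, where 0.00502% of all genes were called, and 3 had an unadjusted p under 0.05. The widest gap was that of C1qa, at 0.83 with a 95% interval of 0.34 to 1.32.

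One dose called 0 of the 8 genes by limma over both experiments, where 1.11% of all genes were called. Their median log2 change was 0.22, against 0.02 over all genes, and 5 of 8 had an unadjusted p under 0.05, against 11.9% of all genes. The log2 changes of these 5 were 0.36 for C1qa, 0.46 for C1qb, 0.40 for C1qc, 0.30 for C3ar1 and -0.31 for C7, with adjusted p from 0.135 to 0.278. Without control replicate 3 of experiment 1, C1qb was called, at 0.61 (adjusted p = 0.0214). The other 3 genes had log2 changes of 0.14 for C5ar1, 0.02 for C4b and 0.12 for Serping1.

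In experiment 2 alone 1 of the 8 was called after 1 dose, where 1.23% of all genes were called: C1qa rose by 0.58 ± 0.13 SE (limma adjusted p = 0.0223). C1qa lay above and C7 below all controls, as 4.17% and 2.94% of all genes did. The C1qa call was lost without control replicate 1 or 5 or without 1-dose replicate 1, 2 or 3, with adjusted p from 0.0511 to 0.0878. Without 1-dose replicate 4, the lowest array of its group for all 3 C1q genes, C1qb (0.86, adjusted p = 0.0105) and C1qc (0.67, adjusted p = 0.0307) were called too, and 3 genes passed in all. The same 3 passed without mstn-null replicate 5 or 6, and 2 passed without mstn-null replicate 2. Experiment 1 called 0 of the 8 by limma, where 0.0251% of all genes were called, and 0 had an unadjusted p under 0.05.

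The 4-dose and 1-dose classes were also set against each other directly. By limma 0 of the 8 genes were called, where 0.321% of all genes were called, and 2 had an unadjusted p under 0.05. These were C5ar1, higher after 4 doses by 0.34 with a 95% interval of 0.15 to 0.54 (adjusted p = 0.145), and C3ar1, higher by 0.28 with an interval of 0.06 to 0.50 (adjusted p = 0.435). The differences of the C1q genes were 0.07 for C1qa (-0.22 to 0.35), 0.22 for C1qb (-0.12 to 0.55) and 0.14 for C1qc (-0.15 to 0.43). That of C7 was -0.08 (-0.28 to 0.11).

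In mstn-null muscle 3 of the 8 genes were called against control over both experiments, a share near the 41.8% of all genes called in that comparison. C5ar1 rose by 0.39 ± 0.09 SE (limma adjusted p = 0.00137), C3ar1 by 0.29 ± 0.10 SE (0.0227), and C7 fell by 0.38 (0.00153). The median over the 8 genes was 0.17, against 0.09 over all genes. The log2 changes of the C1q genes were 0.22, 0.18 and 0.13 for C1qa, C1qb and C1qc, and none was called. C1qa was called without control replicate 3 of experiment 1 (0.32, adjusted p = 0.0371) or without its mstn-null replicate 1 (0.30, adjusted p = 0.0418). Of all called genes 60.7% were higher in mstn-null muscle, and 31.3% when each array was centred on its median.

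The call of C3ar1 in mstn-null muscle was lost with quantile normalization (0.18, limma adjusted p = 0.225), with centring (0.20, 0.147), with the interquartile range of each array as a covariate (0.39, 0.0900) and with the replicate number as a block (0.21, 0.136). That of C5ar1 was lost with the covariate (0.33, 0.118). C7 was called under each of these settings. With the covariate the genes called of all tested fell from 8337 to 596. In each experiment the interquartile ranges of mstn-null and control arrays did not overlap, so that fit separates them poorly from the class.

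The experiments were also compared for mstn-null muscle. In experiment 2 alone 6 of 8 genes were called, where 43.9% of all genes were called: C1qa (0.54), C1qc (0.34), C3ar1 (0.37), C5ar1 (0.58) and C4b (0.52) rose and C7 fell by 0.50. The C1qc call was lost without any of control replicates 1, 3, 4 and 5, mstn-null replicates 1, 2, 5 and 7, 1-dose replicates 2 and 5 and each 4-dose replicate (adjusted p from 0.0511 to 0.119). That of C3ar1 was lost without control replicate 1, 2 or 3 or mstn-null replicate 8 (adjusted p from 0.0533 to 0.0593). With the interquartile range of each array as a covariate 0 of the 6 calls held (limma adjusted p from 0.0537 for C7 to 0.236 for C4b). Over all genes the calls then fell from 8755 to 217. The range did not overlap between mstn-null arrays (2.14 to 2.42) and controls (2.50 to 2.65), so this fit separates it poorly from the class. Quantile normalization ended the calls of C1qc (0.34, adjusted p = 0.0740) and C3ar1 (0.23, 0.206), as did centring (0.21, 0.266 and 0.24, 0.185), and the fit with the replicate number as a block ended that of C3ar1 (0.26, 0.153). The mstn-null values of C1qa and C5ar1 lay above all controls, as those of 8.24% of all genes did. In experiment 1 the log2 changes were -0.41 for C1qa, -0.27 for C1qc, 0.13 for C3ar1, 0.01 for C5ar1, -0.57 for C4b and -0.16 for C7, and 0 of 8 were called by limma, where 2.39% of all genes were called; 0 had an unadjusted p under 0.05.

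Tested directly, the change of C1qa in mstn-null muscle differed between the experiments by 0.95 ± 0.23 SE (limma adjusted p = 0.0349), where 1.68% of all genes differed. The differences of C4b, 1.09 ± 0.31 SE (adjusted p = 0.0542), and C5ar1, 0.57 ± 0.18 SE (adjusted p = 0.0710), were not called. That of C1qa was lost without any of 6 arrays, namely control replicates 2 and 3 and mstn-null replicate 1 of experiment 1 and control replicates 1, 4 and 5 of experiment 2. The number called was then 0, and it was 2 without any of mstn-null replicate 2 or 1-dose replicate 2 of experiment 1 or mstn-null replicate 3, 4 or 5 of experiment 2. The differences between experiments after 1 dose were called for 0 of 8 by limma, where 0% of all genes were called, and 1 had an unadjusted p under 0.05.

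The 4-dose class and mstn-null muscle differed in 3 of the 8 genes, where 20.2% of all genes were called. C1qb was higher after 4 doses by 0.51 ± 0.15 SE (limma adjusted p = 0.0197), C1qc by 0.41 ± 0.13 SE (0.0272) and C3ar1 by 0.29 ± 0.10 SE (0.0437). C5ar1 and C7, called against control in both, differed by 0.10 (95% interval -0.09 to 0.28) and -0.01 (-0.19 to 0.18). With the interquartile range of each array as a covariate 0 of the 3 calls held, with adjusted p from 0.316 to 0.382. With the replicate number as a block those of C1qb (0.45, limma adjusted p = 0.106) and C1qc (0.36, 0.139) were lost. Over all genes the calls fell from 4019 to 394 with the covariate and to 1212 with the block. The C1qc call was lost without any of 4 arrays of experiment 2, namely 4-dose replicates 2, 4 and 5 and mstn-null replicate 6 (adjusted p from 0.0511 to 0.0602). That of C3ar1 was lost without any of 12 arrays, namely 4-dose replicates 1 and 2 and mstn-null replicates 1, 2 and 3 of experiment 1, and 4-dose replicates 1, 4 and 5 and mstn-null replicates 2, 3, 4 and 7 of experiment 2 (adjusted p from 0.05005 to 0.106). One dose against mstn-null muscle called 0 of 8 by limma, where 16.8% of all genes were called; 2 had an unadjusted p under 0.05, among them C5ar1 at -0.25 (adjusted p = 0.0548), which was called without any of 5 arrays: control replicate 3 and mstn-null replicates 2 and 3 of experiment 1, and 1-dose replicates 2 and 3 of experiment 2.

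Bulk muscle RNA mixes fibres with other cells, and more cells of a type and more RNA per cell cannot be told apart. Among 20 markers of macrophages and monocytes, 11 rose after 4 doses, where 1.91% of all genes rose. In mstn-null muscle 7 of the 20 rose, where 5062 of all 19938 genes rose and 41.8% were called in either direction. After 1 dose 0 changed by limma, where 1.11% of all genes were called, and 8 had an unadjusted p under 0.05. In experiment 2 their mean level ranged from 6.03 to 6.31 over the control arrays, from 6.21 to 6.73 after 1 dose, from 6.68 to 6.88 after 4 doses and from 6.22 to 6.84 in mstn-null mice. In experiment 1 it ranged from 4.23 to 4.63 in controls and from 4.55 to 4.70 after 4 doses. Their part in the rises of the C1q and receptor genes was not tested.

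Of each other cell type a smaller share of markers was called after 4 doses. Of 13 fibroblast markers 3 rose, where 1.91% of all genes rose. The mean of the 13 in experiment 2 ranged from 8.73 to 9.08 in controls and from 9.26 to 9.58 after 4 doses. In experiment 1 it ranged from 6.80 to 7.50 in controls and from 6.98 to 7.32 after 4 doses. Of 10 neutrophil markers 0 were called by limma, 1 with an unadjusted p under 0.05, where 3.14% of all genes were called. In mstn-null muscle 6 of the 10 rose, where 5062 of all 19938 genes rose and 41.8% were called in either direction. Of 5 liver markers 0 were called, 0 with an unadjusted p under 0.05, and their experiment 2 mean ranged from 5.26 to 5.42 in controls and from 5.21 to 5.58 after 4 doses. Of 7 lymphocyte and 10 endothelial markers 0 were called, 1 and 2 of them with an unadjusted p under 0.05. Of 8 adipocyte, 5 smooth muscle and 10 muscle fibre markers 1 each was lower, where 1.23% of all genes were lower. The mean of the adipocyte markers was 6.59 in controls and 5.93 after 4 doses in experiment 1. In experiment 2 it was 8.07 and 7.70, with ranges of 7.67 to 8.72 and 7.46 to 7.83. The part of these cells in the results was not tested, and no marker was at 0 on this scale.

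Within a class the complement genes moved together from mouse to mouse to different degrees. After the mean of each class and experiment was subtracted, the Pearson correlation over all 35 arrays was 0.88 between C1qb and C1qc, 0.82 between C1qa and C1qc and 0.71 between C1qa and C1qb. The pairs of C1q genes had correlations of 0.74 to 0.90 over the 12 arrays of experiment 1 and 0.68 to 0.87 over the 23 of experiment 2. C4b correlated with the C1q genes at 0.70 to 0.78 and Serping1 at 0.62 to 0.79, although neither was called after 4 doses. C3ar1 and C5ar1 correlated with each other at 0.46. C7 correlated with the other 7 genes at -0.19 to 0.30, and its sign turned between experiments 1 and 2 with C3ar1 (-0.50 and 0.47), C5ar1 (-0.41 and 0.17), C1qa (0.35 and -0.22), C4b (-0.098 and 0.11) and C1qb (-0.082 and 0.0092). The arrays share their processing, so these values describe the arrays only.

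**Figure D3:**
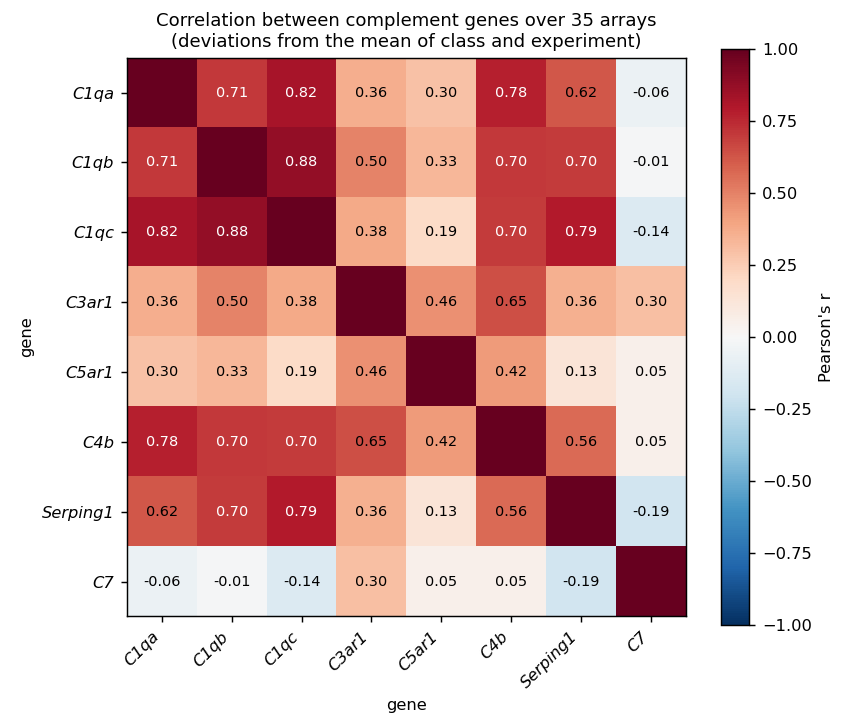
Pearson's r (colour and number) between the 8 complement genes over 35 arrays, after subtracting the mean of each class within each experiment. The C1q genes, C4b and Serping1 form the block of high values, from 0.56 to 0.88, and C7 lies between -0.19 and 0.30 with every other gene.

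The genes most like each complement gene by the same measure over 35 arrays were found among all 19938. For C1qc they were the lysozyme genes Lyz2 (0.92) and Lyz1 (0.90), near-identical copies that the array may not separate, and then C1qb (0.88). For C1qb they were C1qc, the chemokine gene Ccl6 (0.84) and Lyz1 (0.82), and for C1qa they were C1qc, Ifi27 (0.80) and Lyz2 (0.79). C3ar1 was most like Slc9a9 (0.84), the phagocyte oxidase subunit gene Cybb (0.83) and Adamts5 (0.83). C4b was most like the alternative pathway protease gene Cfb (0.91), the haptoglobin gene Hp (0.85) and Pygb (0.84). Serping1 was most like the lipopolysaccharide-binding protein gene Lbp (0.81), Lyz2 (0.80) and C1s1 (0.79).

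C5ar1 and C7 had weaker neighbours. Those of C5ar1 were Tas2r126 (0.65), Sh3d19 (0.62) and Slc9a9 (0.57), and those of C7 were Mctp1 (0.75), Itga4 (0.74) and Abhd13 (0.72). The mean of the 20 macrophage markers correlated at 0.80 with C1qb, 0.77 with C1qc, 0.76 with C4b, 0.72 with C3ar1 and 0.71 with C1qa. With C5ar1 the correlation was 0.47 and with C7 0.20. The mean of the 13 fibroblast markers correlated at 0.80 with Serping1, 0.79 with C1qc, 0.76 with C1qb, 0.68 with C3ar1 and 0.66 with both C1qa and C4b. With C5ar1 it was 0.36 and with C7 0.12. For Serping1 the macrophage markers gave 0.68, so that Serping1 and C1qc had the higher value with the fibroblast markers and the other 6 genes with the macrophage markers. The differences between these correlations were not tested.

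The rest of the complement system was followed with 48 further genes, of which 44 had a row. After 4 doses 4 of the 44 rose and 0 fell by limma, where 1.91% of all genes rose and 1.23% fell. All 4 were among the 8 receptor genes: Vsig4, Cd93, Itgb2 and Itgax. A further 2 of the 44 had an unadjusted p under 0.05 without being called. Their median log2 change was 0.06, against 0.02 over all genes.

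Vsig4, the complement receptor of the immunoglobulin family on resident macrophages, rose most. In experiment 2 its mean level was 4.58 ± 0.19 (SD, n = 5) in controls, 5.32 ± 0.72 (SD, n = 5) after 1 dose, 6.48 ± 0.38 (SD, n = 5) after 4 doses and 4.64 ± 0.17 (SD, n = 8) in mstn-null mice. Its 4-dose arrays, from 5.81 to 6.73, lay above all controls, which reached 4.83. In experiment 1 the 4-dose arrays, from 2.39 to 2.60, lay above the controls, from 1.84 to 2.02, as well. The log2 change over both experiments was 1.39 ± 0.20 SE (limma adjusted p = 2.69e-05), a 2.62-fold rise. That value pools a smaller gap in experiment 1, with means of 1.96 and 2.49, and the larger one in experiment 2. Vsig4 was dim in controls, at percentile 6.29 of all genes in experiment 1 and 15 in experiment 2.

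Cd93, once described as a C1q receptor and found on endothelium and myeloid cells, rose by a log2 change of 0.86 ± 0.16 SE (limma adjusted p = 0.000817). It was also higher after 4 doses than after 1, by 0.78 ± 0.16 SE (limma adjusted p = 0.0145). It was the 1 gene of the 44 called there, where 0.321% of all genes were called. Itgb2 encodes the chain shared by complement receptors 3 and 4 and rose by 0.46 ± 0.10 SE (0.00412), and Itgax, the partner chain in complement receptor 4, rose by 0.35 ± 0.10 SE (0.0398). Of the next genes by p, properdin, Cfp, had a log2 change of 0.32 (0.137) and carboxypeptidase N, Cpn1, 0.21 (0.330).

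None of the 6 classical, 8 lectin, 2 alternative, 6 terminal or 14 regulator genes was called by limma after 4 doses. Of all genes 3.14% were called there, so 0 calls in lists this short do not set them apart. At an unadjusted p under 0.05 the counts were 0, 0, 1, 0 and 1. C1s1, C1s2 and C1ra, which encode the proteases that C1q carries, stood at 0.02, 0.08 and 0.06, and C4a at 0.03. Hc, which encodes C5, stood at 0.02, and C6 at -0.0028. Both were dim in controls of experiments 1 and 2, Hc at percentiles 16.3 and 19.9 of all genes and C6 at 13.8 and 14.9. C7, which fell, lay at 24.9 and 39.9. Whether the fall was particular to C7 was not tested. C1s1 and C1s2 are near-identical copies and uncertain for that reason.

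After 1 dose 0 of the 44 genes were called by limma, where 1.11% of all genes were called, and 4 had an unadjusted p under 0.05. The 6 with the smallest p included Itgb2 at 0.30 (adjusted p = 0.171) and Vsig4 at 0.58 (0.195). In mstn-null muscle 11 of the 44 rose and 3 fell, beside the 41.8% of all genes called there. The 6 with the smallest p were C1qbp, which encodes a mitochondrial protein that can bind C1q and fell by 0.47, and Itgb2 (0.42), Itgax (0.39), Cpn1 (0.38), Itgam (0.35) and Mbl2 (0.27), which rose. Vsig4 and Cd93 were not called there, at 0.05 ± 0.19 SE and -0.15 ± 0.15 SE. They were higher after 4 doses than in mstn-null muscle by 1.34 ± 0.19 SE (1.51e-05) and 1.01 ± 0.15 SE (2.84e-05).

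**Figure D4:**
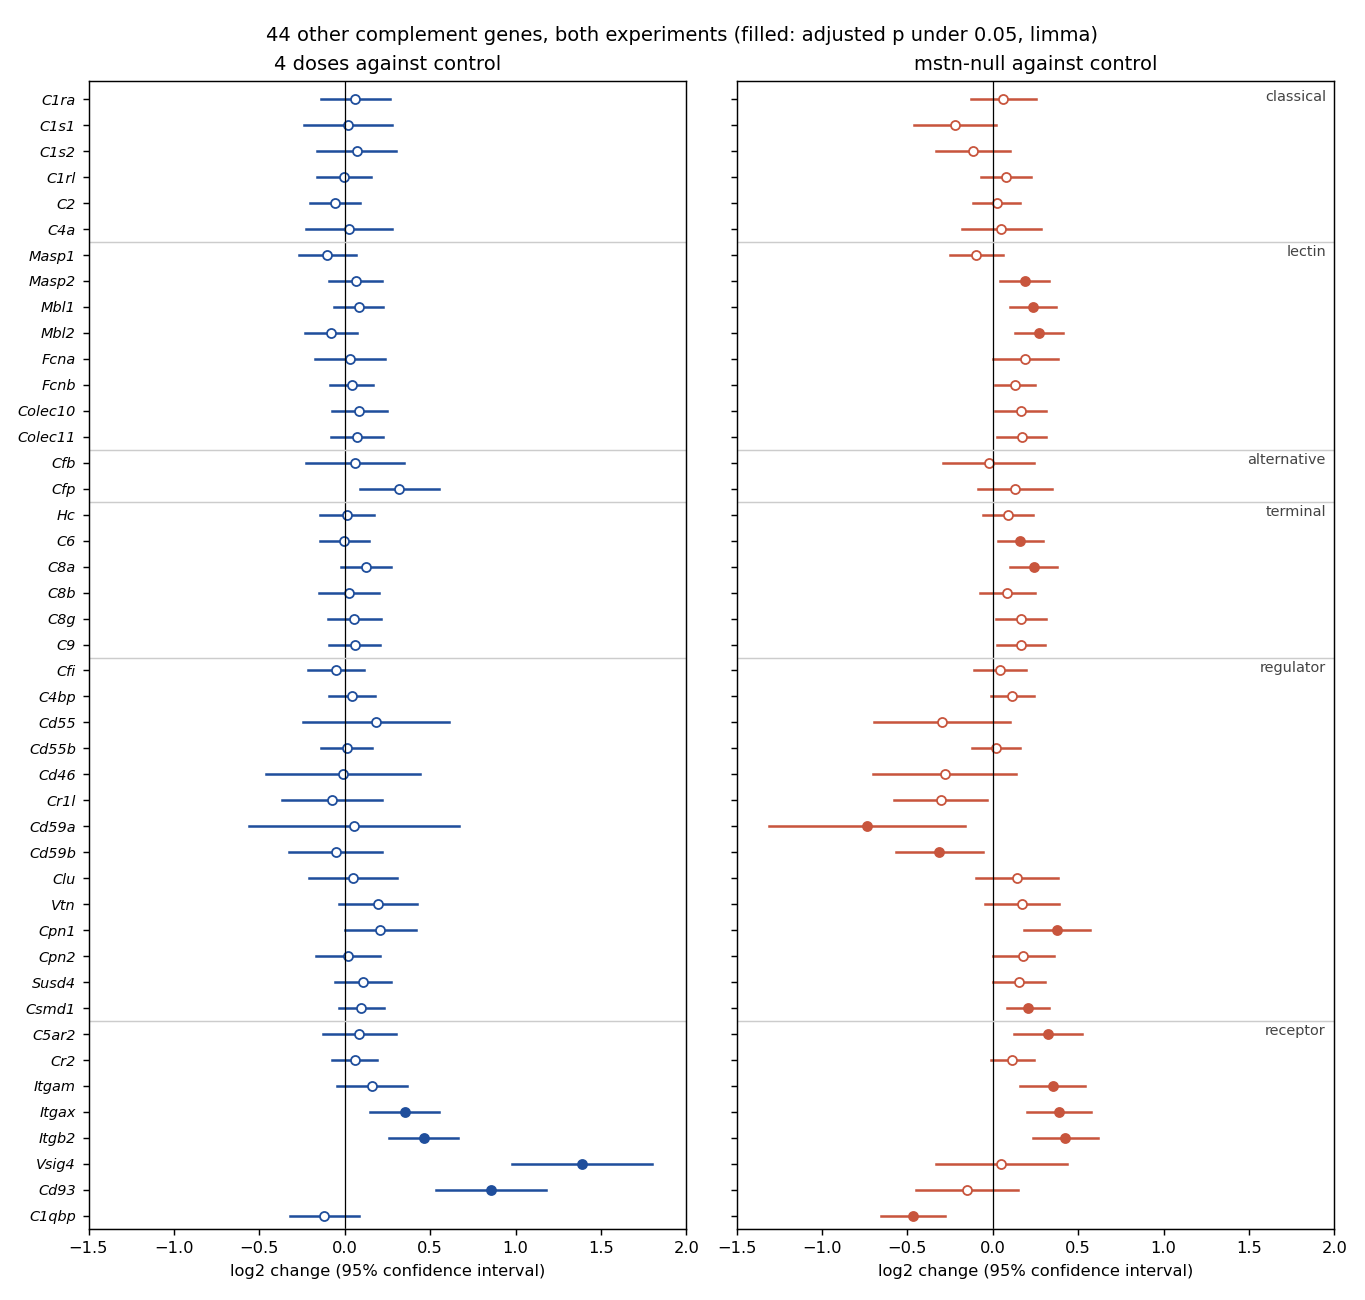
Log2 change against control (horizontal axis, with its 95% confidence interval) of 44 further complement genes over both experiments, grouped by role, after 4 doses and in mstn-null mice. Filled points passed the limma test: after 4 doses these are Itgax, Itgb2, Vsig4 and Cd93, all receptors, and in mstn-null mice 11 genes were higher and 3 lower.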

How the data were processed

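The deposited table gives, per the submitters' processing notes, RMA values, and they were taken as log2 from their range; the notes also name limma 3.4.4 and R 2.11.1 with no role. The sources used here do not say whether both experiments were normalized together or name the probe design's build. The array annotation gave 21789 of 35556 rows a single symbol, 1621 several and 12146 none here; only the first were used, 1 row per gene, and no filter on dim genes was applied.

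Levels and changes were fitted with limma 3.58.1 in R 4.3.3 (two-sided, Benjamini-Hochberg over 19938 genes): 1 fit over the 35 arrays with terms for class and experiment, 1 fit per experiment, and a fit of group means for the difference between experiments. SE and intervals come from the fit. The labels call arrays of a group biological replicates. The genes, lists, motifs and rules were chosen with earlier results of these data known. Every chosen gene is named, with up to 6 of the wider list by smallest p per comparison with control. Named too are the 3 most correlated genes per chosen gene, outside the symbols passed over, and markers for context. C1s1, C1s2, C1ra, C4a, Hc and C6, and the wider genes given against other classes, were added for contrast. The fits were tested on simulated data. Alternatives were quantile normalization, median centring, the interquartile range as a covariate, the mean of all rows of a gene, leaving out dim genes, array weights, a replicate block and leaving out each array. Depth has no count here; the number of arrays limits the precision.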

Additional observations from a re-analysis of the deposited data

Results flagged for a closer look

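In experiment 2, control replicate 3 had the lowest C1qb level of its group, 6.81, far below the next at 7.39. The same array had the lowest C7 level of the controls, 5.69, below the next at 5.91. Both gaps exceed Dixon's critical value for 5 arrays. Chance alone marks about 1 group in 20, and 2 of the 32 groups tested were marked. Without that array C1qb and C7 were still called after 4 doses over both experiments.

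The change of C1qa in mstn-null muscle against control differed between the experiments by 0.95 on the log2 scale, from -0.41 in experiment 1 to 0.54 in experiment 2. Of 24 such differences tested for the 8 genes, 1 was called. The cause was not tested.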

How the results depend on the processing

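Over both experiments C1qb, C3ar1, C5ar1 and C7 were called after 4 doses under every setting that kept them and without any single array. The count after 4 doses was 5 (4 to 6 with 1 array left out), in experiment 2 alone 6 (5 to 6), and in mstn-null muscle 3 (3 to 4). With 1 array left out it was 0 to 1 after 1 dose, 0 to 0 for 4 doses against 1 dose, 1 to 3 for 4 doses against mstn-null muscle, 0 to 1 for 1 dose against it, and 0 to 0 in each experiment 1 comparison. It was 4 to 7 for mstn-null muscle and 0 to 3 for 1 dose in experiment 2 alone, 0 to 2 for the difference between experiments in mstn-null muscle, and 0 to 0 for that after 1 dose or 4 doses. Signal over background was not examined.

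Quantile normalization and median centring each left 0 complement genes differing between experiments in mstn-null muscle, and centring left 0 called after 1 dose in experiment 2. Genes of all tested that differed in mstn-null muscle fell from 334 to 32 with quantile normalization and to 31 with centring. With the interquartile range as a covariate 1 gene was called in mstn-null muscle over both experiments and 0 in experiment 2, 0 for 4 doses against mstn-null muscle, 2 after 1 dose in experiment 2, and 2 for the difference in mstn-null muscle. Genes called of all tested in mstn-null muscle then fell from 8337 to 596 over both experiments and from 8755 to 217 in experiment 2. For 4 doses against mstn-null muscle they fell from 4019 to 394, and for the difference in mstn-null muscle they rose from 334 to 874. Leaving out dim genes kept 10526 genes and dropped C3ar1, C5ar1 and C7, so that C1qa, C1qb, C1qc, C4b and Serping1 were left. The counts became 2 after 4 doses, 0 in mstn-null muscle, 3, 2 and 3 in experiment 2 for 4 doses, 1 dose and mstn-null, and 2 for the difference in mstn-null muscle. Of the 10526 genes 5116 were called in mstn-null muscle, 5507 in mstn-null muscle of experiment 2 and 585 for the difference. After 4 doses over both experiments the genes called of all tested lay between 514 and 1543 over all settings. Array weights, whose estimation did not fully converge, gave 1 gene after 1 dose, 1 for 4 doses against 1 dose and 5 after 1 dose in experiment 2, and differences between experiments in 4, 1 and 6 genes for mstn-null muscle, 1 dose and 4 doses. Genes called of all tested after 4 doses rose from 626 to 1543 and after 1 dose from 222 to 1743. They rose from 64 to 437 for 4 doses against 1 dose and from 246 to 2069 after 1 dose in experiment 2. For the differences between experiments they rose from 334 to 1501 in mstn-null muscle, from 0 to 272 after 1 dose and from 1 to 1612 after 4 doses. The cause was not tested in any of these cases.

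Same-numbered arrays did not deviate together, with 11 of 24 pairs correlated above 0.1 and values from -0.525 to 0.343, so the numbers were not taken as pairs. A fit with the replicate block called 5 genes after 4 doses, 2 in mstn-null muscle and 1 of 3 for 4 doses against mstn-null muscle. Over all genes the block moved the count in mstn-null muscle from 8337 to 4982, and that for 4 doses against mstn-null muscle from 4019 to 1212.

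Changes of sign were limited to values that were not called. C4b after 1 dose was -0.024, -0.029 and -0.020 with quantile normalization, centring and array weights. C7 for 4 doses against mstn-null muscle was 0.081, 0.038, 0.041 and 0.10 with quantile normalization, centring, the covariate and the block. In mstn-null muscle of experiment 1, C5ar1 was -0.063 and -0.0026 with quantile normalization and centring, and C1qc 0.034 with the covariate. With 1 array left out, C4b ran from -0.086 to 0.14 after 1 dose and from -0.083 to 0.082 after 4 doses, and C7 from -0.056 to 0.036 for 4 doses against mstn-null muscle. In experiment 1, C1qa ran from -0.19 to 0.077 and C1qc from -0.15 to 0.32 after 4 doses, and C3ar1 from -0.0089 to 0.24 and C5ar1 from -0.076 to 0.16 in mstn-null muscle. Of 53 further gene changes not printed above, 13 changed sign under another setting and 17 with an array left out, and 0 of these were called.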
